A study of Drosophila melanogaster with 5 samples.

Results

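Transcript levels in Drosophila embryos of stages 10 to 12 (S10-12) were set against those of stages 8 to 9 (S8-9), the 2 postgastrulation intervals of a time course of 5 intervals, for 259 genes of a subtracted cDNA library. The comparison covers every printed gene with a CG or CR number on the 4 membranes of each interval, 8 of the 20 membranes of the series, so no gene was chosen by its values. Both groups are wild-type Canton-S embryos, grown alike and hand-selected by morphology, with 1 pooled RNA sample of 100 embryos per interval by the labels, and neither carries an allele or received a treatment. Radioactively labeled SMART-cDNA, an amplified full-length cDNA, was hybridized to nylon membranes A, B and C, each with 295 library clones, and to membrane D with the whole library of 579 clones. The library was enriched for transcripts of gastrulating embryos over syncytial ones, so counts refer to these genes and not to the genome. No source describes the 4 membranes of a group as separate collections of embryos, so p-values and confidence intervals measure only the spread between membranes. By the methods, cDNA was labeled and hybridized in 2 events, but the event of a given membrane is unknown, so events could be neither separated from letters nor tested.

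During stages 8 and 9 the germ band extends along the dorsal side and the first neuroblasts leave the ectoderm. During stages 10 to 12 the gnathal and trunk segments become visible, the tracheal and salivary gland primordia invaginate, and the germ band begins to retract. Genes of cellularization are largely silent by then, whereas genes of patterning, adhesion and neural differentiation act in restricted groups of cells. In RNA of whole embryos, a smaller number of cells of a type and less RNA per cell cannot be told apart.

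Each value is the net spot signal of a gene, background subtracted, divided by the membrane's median net signal for RP49, a gene of the ribosome. Spots had to exceed their local background by at least 1 SD of it, and S10-12 and S8-9 were compared within the membrane letter. Of the 259 genes, 257 were measured on at least 1 membrane at S10-12 and 252 at S8-9, and 168 were measured in both intervals on at least 2 letters and tested. Differences are log2 values, S10-12 minus S8-9, so that 1 is 2-fold higher at S10-12. They are given with their standard error (SE) or 95% confidence interval (CI) from limma's moderated fit with the letter as a block. The fit also uses membranes without a same-letter partner in the other interval. A fitted difference can therefore depart from the mean over shared letters, as for brk at 0.73 against 0.48.

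No gene passed an adjusted p of 0.05 in either direction, 0 higher at S10-12 (0%) and 0 lower (0%) of 168, by limma with Benjamini-Hochberg adjustment over all features. The smallest adjusted p was 0.0871. With only these 2 intervals in the fit, 1 gene was higher (0.595%) and 7 were lower (4.17%) at an adjusted p under 0.05, and without the letter block none was. At an unadjusted p under 0.05, 4 genes were higher (2.38%) and 10 were lower (5.95%) at S10-12. The differences were centered on no change, with a median of -0.01, 83 genes above 0 and 85 below. Relative to RP49, 3 genes (1.79%) were at least 2-fold higher at S10-12 in the fit and 14 (8.33%) at least 2-fold lower. Such a balance moves with the divisor, since the median over genes was 0.77 with RP49, actin and tubulin together. The 10th and 90th percentiles were -0.93 and 0.56. The median CI reached 0.93 to each side, or 1.91-fold, and only for 27 genes did the whole interval lie within a 2-fold difference. For the other 141 genes a 2-fold difference in at least 1 direction lay within the interval.

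The membranes differed among themselves more than the median gene did between intervals. The median difference was -0.02 over 148 genes on A, 0.77 over 95 genes on B, -0.40 over 102 genes on C and 0.03 over 242 genes on D. On B, 86 of 95 genes lay above 0, and on C, 76 of 102 lay below. RP49 itself, the divisor, had a median net signal of 0.0495, 0.0121, 0.0870 and 0.0414 on A to D at S10-12, against 0.0518, 0.0313, 0.0755 and 0.0479 at S8-9. B was thus the membrane with the dimmest RP49 spots in both intervals, and the dimmest of all 8 was B at S10-12. RP49 spots also spread more at S10-12, with a coefficient of variation of 52.1% to 78.9%, against 24.2% to 43.1% at S8-9. Across genes, which are not independent replicates, the differences on A and C had a Pearson correlation of 0.77 (90 genes) and those on C and D one of 0.10 (98 genes).

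**Figure D1:**
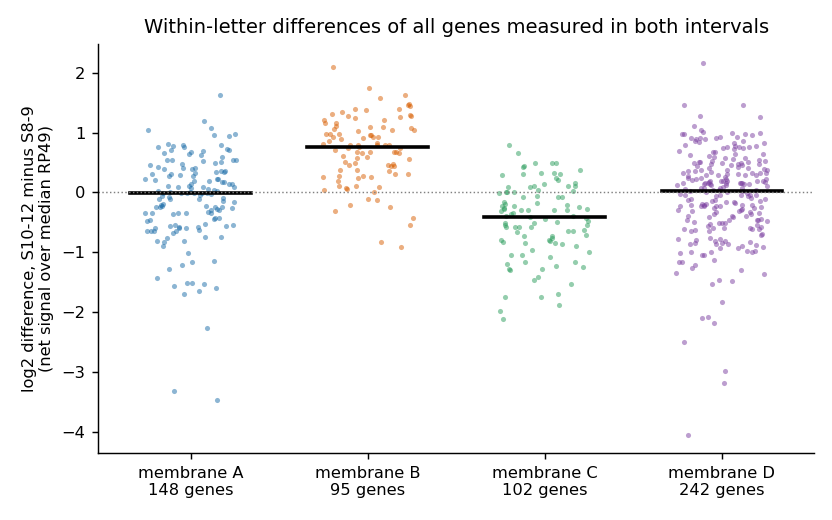
Log2 difference of every gene measured in both intervals, S10-12 minus S8-9, on each membrane letter; points are genes and black bars are medians. The cloud sits at 0.77 on B and at -0.40 on C, and near 0 on A and D.

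The printed controls actin, tubulin, tin and dl, and the dap spike, all lay lower relative to RP49 at S10-12 on each letter that carried them. Actin, the subunit of microfilaments, was printed as a control on every membrane and had a median of 1.43, 0.710, 1.20 and 0.698 times RP49 on A to D at S10-12, against 3.27, 2.14, 4.07 and 1.88 times RP49 at S8-9. The S10-12 membranes all lay below the S8-9 membranes, and the mean within-letter difference was -1.50 ± 0.24 (SD, n = 4 letters). On B at S10-12 none of the 10 actin spots passed the signal rule, so that this value is a reading near the background. Tubulin, the subunit of microtubules, was at 15.4, 8.29, 10.4 and 9.03 times RP49 at S10-12, against 26.6, 10.8, 20.3 and 20.7 at S8-9. It was lower at S10-12 on all 4 letters, by a mean of -0.84 ± 0.34 (SD, n = 4), although the ranges of the intervals overlapped. With 4 letters the exact two-sided permutation test of signs cannot go below 0.125, the p obtained for both controls. The mesoderm factor tin, with the same p, was at 0.262, 0.275, 0.141 and 0.486 times RP49 at S10-12, against 0.339, 0.607, 0.347 and 0.494 at S8-9, a mean difference of -0.71 ± 0.61 (SD, n = 4 letters). For dl the letters ran from -2.45 to -0.73, with 5 of 34 spots past the signal rule in each interval. The printed twi, sna and Sry-alpha controls did not share 1 direction. Relative to RP49, twi was at 1.28 on B and 1.08 on D, and sna at 0.56 and 0.17. Both lay below 0 on A and C. Sry-alpha was at 0.71, 1.25 and -3.94 on A to C. For fog, without a passing spot, A and C were below 0. Most spots of these controls did not pass the signal rule. Apart from the cytoskeletal controls, tin, dl and the dap spike were lower relative to RP49 on each letter that carried them. The split values of twi, sna and Sry-alpha rest mostly on readings near the background. Tubulin spots were the brightest on all 8 membranes, and whether they neared the detector's limit was not tested.

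The bacterial dap transcript, added to the RNA as a spike in a fixed ratio, lay lower relative to RP49 at S10-12, as actin and tubulin did. It was at 1.26, 1.51 and 0.0614 times RP49 on A to C at S10-12, against 2.04, 2.06 and 0.195 at S8-9, a mean difference of -0.94 ± 0.64 (SD, n = 3 letters; exact permutation p = 0.25, the smallest possible). Scaled to dap in place of RP49, actin was at -0.50, -1.15 and -0.10 on A to C. Its mean was -0.58 ± 0.53, in which B rests on the reading near the background. Tubulin was at -0.09, 0.06 and 0.69, a mean of 0.22 ± 0.42. On C, 12 of 40 dap spots passed the signal rule at S10-12 and 14 of 40 at S8-9, over pooled dilutions. The dap divisor on C is thus itself a reading near the background. Scaled to the 75th percentile of the library spots of a membrane, actin was at -1.42 ± 0.58 and tubulin at -0.76 ± 0.39, below 0 on all 4 letters. The factor tin was at -0.63 ± 0.83 with that scaling, with D above 0, and at 0.001 ± 0.60 when scaled to dap. The part of RP49 in these differences was not tested.

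**Figure D2:**
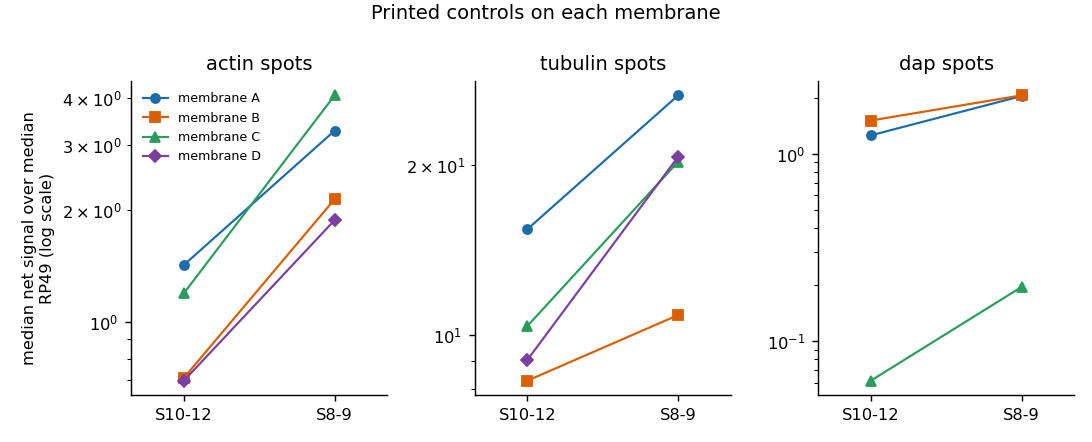
Median net signal of the actin, tubulin and dap control spots over the median RP49 signal of the same membrane (log axis), at S10-12 and S8-9, 1 line per membrane letter. Every line is lower at S10-12, for dap as for the others, and for actin the 4 S10-12 values lie below all S8-9 values.

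Among library genes, cytoskeletal and morphogenetic ones also lay on the low side. All 5 tested members of that list had differences below 0, with a median of -0.58 against -0.01 for all genes tested (0.22 against 0.77 with RP49, actin and tubulin as joint divisors), and none passed the adjusted test. The main beta-tubulin betaTub56D was at 0.146 times RP49 on A and 1.52 on D at S10-12, against 1.61 on A, 1.65 on C and 1.20 on D at S8-9. Its 2 shared letters disagreed, at -3.47 on A and 0.34 on D, and the fit gave -1.82 (95% CI -3.44 to -0.20, adjusted p = 0.414 by limma). BetaTub60D, a second beta-tubulin, differed by -0.55, -0.72 and -0.46 on A, C and D, and by -0.58 in the fit (95% CI -1.42 to 0.26). The septin Sep5, a filament protein of the cellularization furrow, was at 0.564, 0.845 and 0.971 times RP49 on A, B and D at S10-12, against 1.64 on A and 1.13 on D at S8-9. These values did not overlap, but the fitted difference of -0.88 had a CI of -2.16 to 0.40. The actin regulator ena was at -0.27 in the fit (95% CI -1.31 to 0.77).

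Profilin, encoded by chic, binds actin monomers and was not on that list. It was at 0.684, 1.12, 0.276 and 0.579 times RP49 on A to D at S10-12, against 1.51, 0.679 and 2.07 on A, C and D at S8-9, and it was not measured on B at S8-9. It was lower at S10-12 on each of the 3 shared letters, by -1.14, -1.30 and -1.84, or 2.38-fold in the fit (log2 -1.25, SE 0.42, adjusted p = 0.184 by limma). Calmodulin, encoded by Cam, was at 0.162, 1.21 and 0.584 times RP49 on A, B and D at S10-12, against 1.62, 0.993 and 1.30 at S8-9. The letters were split, with a difference above 0 on B, and the fit gave -1.40 (SE 0.62, adjusted p = 0.451 by limma).

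The library gene with the smallest unadjusted p was CG4440, an uncharacterized gene that an earlier study classed with cellularization. It was at 2.81, 3.70, 1.36 and 3.44 times RP49 on A to D at S10-12, against 8.33, 6.95, 4.57 and 7.57 at S8-9. The highest S10-12 value lay below the lowest S8-9 value, and each letter was lower, with differences from -0.91 to -1.75. The fit gave 2.54-fold lower (log2 -1.34, SE 0.36, 95% CI -2.09 to -0.59, adjusted p = 0.0871 by limma). It passed the threshold under 4 of 18 alternative settings, with adjusted p-values of 0.00923 to 0.997. Over the 5 intervals in order, its mean log2 ratio to RP49 was 0.67 at S2-3 (1 membrane), 2.05 ± 0.17 (SD, n = 3) at S5 and 1.76 ± 0.84 (n = 4) at S6-7, then 2.74 ± 0.38 (n = 4) at S8-9, and 1.40 ± 0.66 (n = 4) at S10-12. S8-9 held its highest mean.

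Tom, a Bearded-family inhibitor of Notch ligand activity, had the other difference nearest to the threshold. It was at 2.19, 1.00 and 0.813 times RP49 on A, C and D at S10-12, against 3.68, 4.35 and 6.43 on A, B and D at S8-9. The membranes did not overlap, yet only A and D measured it in both intervals, at -0.75 and -2.98. In the fit it was 3.36-fold lower at S10-12 (log2 -1.75, SE 0.49, 95% CI -2.75 to -0.75, adjusted p = 0.0871 by limma). Its relatives did not share one direction. BobA was at -0.58 (95% CI -1.54 to 0.38), and Ocho at 0.64 (95% CI -0.39 to 1.68), with 1.49 and 1.76 times RP49 on B and D at S10-12, against 0.469, 0.588, 0.291 and 1.44 on A to D at S8-9. Ocho was the 1 gene of 168 (0.595%) whose S10-12 membranes all lay above its S8-9 membranes. In the other direction there were 6 such genes (3.57%): CG4440, Tom, Sep5, skpA, CG10035 and CG15480.

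**Figure D3:**
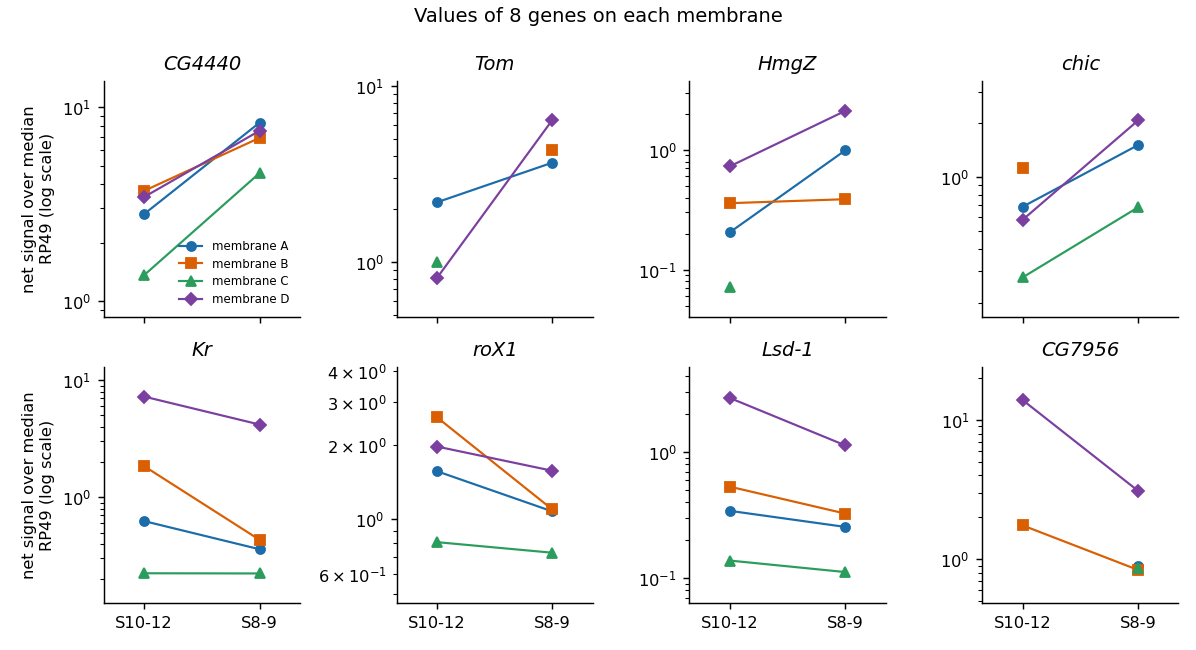
Net signal over the median RP49 signal (log axis) of 8 genes at S10-12 and S8-9, 1 line or point per membrane letter; a point without a line was measured in 1 interval only. CG4440 is lower at S10-12 on all 4 letters, and roX1 and Lsd-1 are higher on all 4.

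Chromatin genes lay on both sides. HmgZ, an HMG-box protein that bends DNA, was at 0.205, 0.359, 0.0716 and 0.729 times RP49 on A to D at S10-12, against 0.991, 0.387 and 2.12 on A, B and D at S8-9. It was lower at S10-12 on the 3 shared letters, by -2.27, -0.11 and -1.54, and 2.70-fold lower in the fit (log2 -1.43, SE 0.47, adjusted p = 0.170 by limma). The histone deacetylase Rpd3, which was not on the chromatin list, differed by -1.51, -0.32, -2.11 and 0.40 on A to D. Membrane D stood against the other letters (fit -0.88, adjusted p = 0.532 by limma). Df31, a protein of decondensed chromatin, was at 13.2, 5.87 and 0.911 times RP49 on A, B and D at S10-12, against 10.2, 6.93, 3.76 and 15.1 on A to D at S8-9. Its letters differed by 0.37, -0.24 and -4.05 on A, B and D, so that the fitted -1.20 turned on D. The remodelers Mi-2 and Iswi were at 0.35 and 0.01. The 5 tested members of the chromatin and dosage compensation list were HmgZ, Df31, Mi-2, Iswi and the RNA roX1, at 0.56. Their median was 0.01, with 3 above 0 and 2 below. It ran from -0.56 with a signal rule of 2 background SDs to 0.78 with RP49, actin and tubulin as divisors.

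In the ubiquitin and SUMO list, 4 of 5 tested members lay below 0 and the median was -0.15, which turned to 0.24 with RP49 and dap and to 0.45 with RP49, actin and tubulin as divisors. Aos1, a subunit of the SUMO-activating enzyme, was at 2.04, 1.26 and 1.29 times RP49 on A, B and D at S10-12, against 3.10, 1.95 and 5.50 on A, C and D at S8-9 (fit -1.35, SE 0.50, adjusted p = 0.219 by limma). SUMO itself, encoded by smt3, was at 3.92, 8.78, 1.61 and 7.47 times RP49 at S10-12, against 4.52, 5.09, 1.96 and 3.80 at S8-9, and had a fitted difference of 0.32 with letters on both sides. The SCF ubiquitin ligase subunit skpA was at 0.746 and 1.08 times RP49 on A and B at S10-12, against 2.35, 1.91 and 1.41 on A to C at S8-9. These values did not overlap, and the difference was -1.18 (95% CI -2.39 to 0.02).

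Several other genes were lower on each letter that measured them. CG11077, annotated as the homolog of the mitochondrial membrane protein Mpv17, was at 0.867, 0.766, 0.417 and 0.399 times RP49 at S10-12, against 2.80, 1.53 and 0.529 on A, C and D at S8-9. Its letters differed by -1.69, -1.87 and -0.41 (fit -1.59, SE 0.50, adjusted p = 0.145 by limma), and without membrane D it reached an adjusted p of 0.00349, within a range of 0.00349 to 0.997 over its alternatives. The scavenger receptor Sr-CII, the 1 printed member of the hemocyte markers, differed by -0.16, -0.55 and -0.30 on A to C and by -3.18 on D, so that its fitted -1.05 turned on D. The TOR inhibitor scyl was at -0.92 (95% CI -1.88 to 0.04), and the Hedgehog receptor ptc at -0.64 (95% CI -1.45 to 0.16), below 0 on 3 of 3 letters each. CG34335, CG4448 and CG5002 were likewise below 0 on 3 letters, with fitted differences of -0.82, -0.65 and -0.50. CG12581, measured on only 2 membranes at S10-12, was at -1.38 (SE 0.50, adjusted p = 0.219 by limma).

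Patterning factors lay on both sides of 0. Krüppel (Kr), a gap gene that is used again in the amnioserosa and in neural cells, was at 0.626, 1.84, 0.224 and 7.25 times RP49 on A to D at S10-12, against 0.360, 0.433, 0.223 and 4.18 at S8-9. It was higher by 0.80, 2.09 and 0.79 on A, B and D and by 0.01 on C, and the fit gave 1.89-fold (log2 0.92, SE 0.36, 95% CI 0.18 to 1.67, adjusted p = 0.261 by limma). The repressor of Dpp targets brk was higher at S10-12 by 0.71, 0.56 and 0.17 on A to C, with a fitted 0.73 (95% CI -0.31 to 1.77). The dorsal ectoderm and amnioserosa list, which holds both, had 5 tested members above 0 and 2 below, and a median of 0.12, which turned to -0.08 with the mean of RP49 as divisor and to -0.02 without membrane B. Its protease tld and its homeodomain factor tup were at 0.10 and 0.12, and egr and CG6234 at -0.10 and -0.12. The homeotic gene Antp was at -0.13 and its cofactor partner hth at 0.28.

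Other patterning genes had a pair of values only on membrane D, so no test applied. The pair-rule genes slp1 and odd differed there by 1.00 and 0.86, h by 0.27 and the segment-polarity genes ci, nkd and gsb by 0.23, -0.06 and -0.76. The dorsoventral genes sog and Ance stood at 0.78 and 0.74 on that membrane. Each of these is 1 pair of readings.

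CG7956 had the largest positive difference of all tested genes. It was at 1.75 and 13.9 times RP49 on B and D at S10-12, against 0.894, 0.836, 0.865 and 3.10 on A to D at S8-9. It was 3.21-fold higher at S10-12 in the fit (log2 1.68, SE 0.50, adjusted p = 0.132 by limma), but A and C did not measure it at S10-12. The difference was 0.60 under normexp background correction and 0.36 without the filter on duplicate spots. The phosphoprotein-binding adaptor 14-3-3zeta was at 1.57 and 3.38 times RP49 on A and D at S10-12, against 0.511, 0.645, 0.250 and 1.81 on A to D at S8-9 (fit 1.34, SE 0.49, adjusted p = 0.219 by limma). The lipid-droplet perilipin Lsd-1 was at 0.342, 0.532, 0.138 and 2.70 times RP49 at S10-12, against 0.255, 0.325, 0.112 and 1.13 at S8-9. Lsd-1 was higher on all 4 letters, by 0.30 to 1.25, though the ranges overlapped and the CI was -0.19 to 1.53 around 0.67.

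Genes of RNA processing lay above 0 in 6 of 7 tested cases, with a median of 0.32, which was 0.07 without membrane B and 0.03 under normexp. Rrp6, the nuclear exosome ribonuclease, was at 0.133, 0.578 and 1.02 times RP49 on A, B and D at S10-12, against 0.0775 and 0.172 on A and B at S8-9, where only 2 of its 8 spots passed the signal rule (fit 1.37, SE 0.51, adjusted p = 0.219 by limma). The list's exception was the hnRNP Hrb98DE at -1.32 (95% CI -2.89 to 0.24). The spliceosomal core protein SmE, here CG18591, was higher on 3 of 3 letters, by 0.32, 1.28 and 0.65 (fit 0.60, 95% CI -0.23 to 1.44). OstStt3, the catalytic subunit of oligosaccharyltransferase, was likewise higher on 3 of 3 letters, with a fitted 0.67 (95% CI -0.21 to 1.55). Pdi, which forms disulfide bonds in the same compartment, was at -0.95 (95% CI -1.99 to 0.09).

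All 4 tested non-coding RNAs had differences above 0, with a median of 0.53 and none past the adjusted test. The median was 0.26 under normexp and 0.21 with the median of clones in place of their mean, where roX1 was at 0.19. roX1, the RNA of the male dosage compensation complex, was at 1.57, 2.59, 0.808 and 1.97 times RP49 at S10-12, against 1.08, 1.10, 0.732 and 1.57 at S8-9, higher on all 4 letters (fit 0.56, 95% CI -0.19 to 1.32). Its mean log2 ratio over the 5 intervals began at -3.08 ± 1.01 (SD, n = 3) in S2-3 embryos, and it was -0.28 ± 0.47 in S5, -0.66 ± 1.07 in S6-7, 0.11 ± 0.45 in S8-9 and 0.67 ± 0.72 in S10-12 embryos (n = 4 each). S10-12 held its highest mean, within 1 SD of that at S8-9. The stress-induced nuclear RNA Hsromega was at 0.47, CR32477 at 0.49 and CR40712 at 0.93, with CIs that included 0. On membrane D, 2 clones of CR40712 were lower and 2 higher, from -2.26 to 2.81 with a median of -0.64. Of the Hsromega clones 3 were lower and 3 higher (median -0.006), whereas 19 of 24 CR32477 clones were higher.

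Neural and axon-guidance genes also lay mostly above 0, 6 of 7 with a median of 0.24, which was 0.07 without membrane B and 0.59 without C. The immunoglobulin-domain protein dpr19 was at 0.57 (95% CI -0.21 to 1.34), the Wnt5 receptor drl at 0.43 (95% CI -0.35 to 1.21) and the adhesion protein Nrt at 0.19 (95% CI -0.88 to 1.26). The cell-adhesion protein Lac was the member below 0, at -0.02. Translation factors were near 0, with Ef1gamma at 0.04, Ef2b at 0.07 and the 4E-binding protein Thor at -0.22. The remaining genes higher on at least 3 letters without exception were CG17829, the histone-gene factor Hinfp, at 0.45, CG12026 at 0.36, CG6479 at 0.34 and the bromodomain protein fs(1)h at 0.32. Without membrane B, on which 86 of 95 genes lay above 0, CG12026, CG6479 and fs(1)h were at 0.000064, 0.074 and 0.056. Over all 115 genes measured in both intervals on at least 3 letters, 13 (11.3%) were higher and 12 (10.4%) lower on every letter. Random signs on so few letters would also give genes with 1 direction, and the counts were not tested against that.

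**Figure D4:**
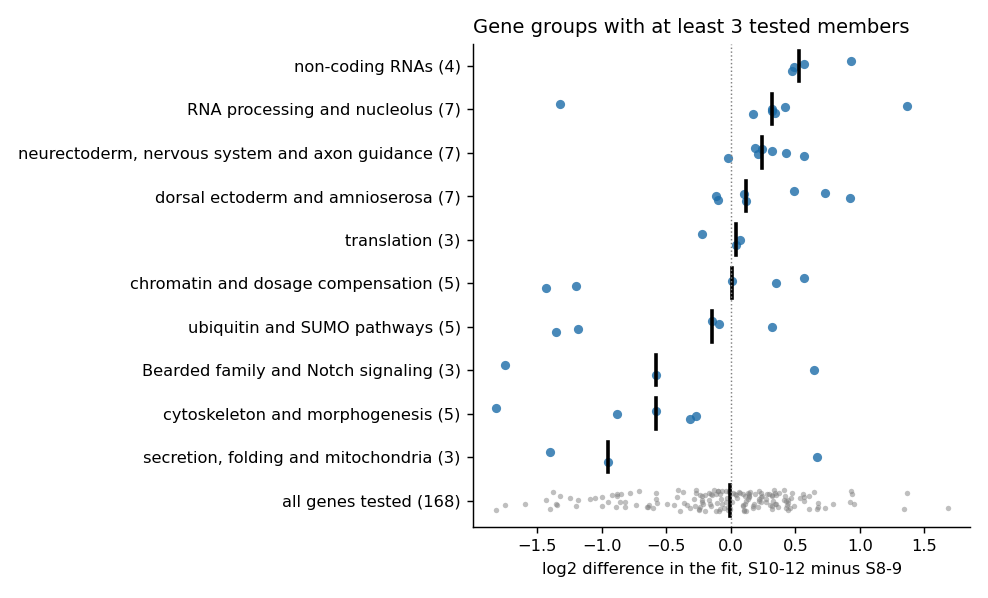
Fitted log2 difference, S10-12 minus S8-9, of the tested members of 10 gene lists and of all 168 genes tested, with the number tested in brackets; points are genes and black bars are medians. The lists are a selection of those with at least 3 tested members. Among those not drawn are immunoglobulin-superfamily and leucine-rich-repeat proteins (6 tested, 3 above and 3 below 0, median 0.08) and protein kinases (3 tested, 2 above and 1 below 0, median 0.33). The non-coding RNAs all lie above 0 and the cytoskeletal genes all below, inside the range of all genes; with RP49, actin and tubulin as divisors the cytoskeletal median is 0.22.

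Of the 10 printed genes that an earlier study placed in cellularization, 7 were tested, 2 above and 5 below 0, with a median of -0.12. That median turned to 0.14 with 75th percentile scaling and to 0.22 without membrane D. The 3 clusters of temporal profiles, which the study drew from these same samples, had medians of -0.04 (22 genes), 0.14 (31 genes) and -0.13 (34 genes). With 75th percentile scaling the cluster medians were 0.09, 0.21 and 0.13, against 0.12 for all genes tested. Without membrane D they were 0.18, 0.21 and 0.12, against 0.10. In the second cluster 23 genes lay above 0 and 8 below, and the cluster is not independent of these values. Clusters are numbered here as in the study's gene list. Its cluster 2 holds brk, tup and trn, which the study's text places in its first group. The study describes that group as most active at S6-7 and falling rapidly later. Cluster 2 of the list also holds Sry-alpha, for which the text gives a peak at S5. Of 8 genes whose expression the study described as sustained, 4 were tested, 3 above 0, with a median of 0.23.

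**Figure D5:**
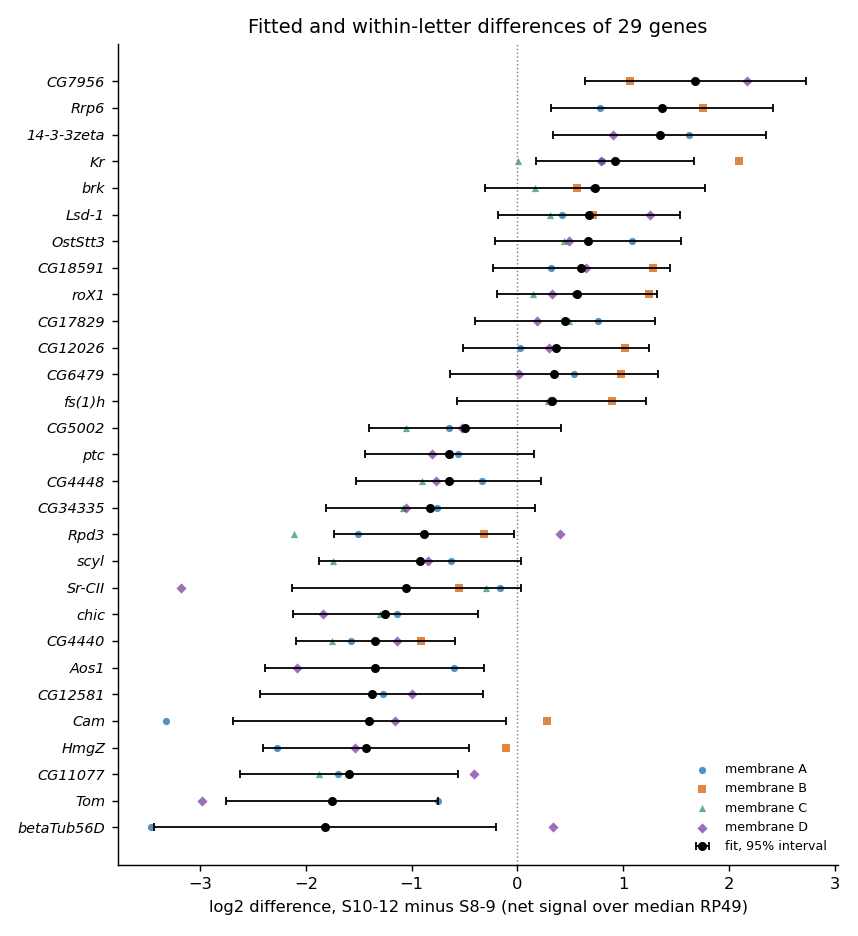
Fitted log2 difference (black, with 95% CI) and within-letter differences (colored) of 29 genes, which are the 10 most positive and 10 most negative means among genes with 1 direction on at least 3 letters and all genes with an unadjusted p under 0.05. Letters of 1 gene spread over more than 3 log2 units for betaTub56D, Cam and Sr-CII.

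Membrane D carries several clones of some genes, which share a transcript, a membrane and a hybridization, so their values are given without a test. Of 21 clones of CG10035 measured in both intervals, 16 were lower at S10-12, with a median of -0.59. Of 12 clones of CG13333, a gene measured on D alone, 11 were lower with a median of -0.91, whereas the average over clones was 1.47 times RP49 at S10-12 and 1.34 at S8-9. The remaining clone was at 1.17, and which clones set the average was not tested. CG13427 had 7 of 8 clones lower (median -1.39), in contrast to 0.55 and 0.32 on A and C. For CR32477, 19 of 24 clones were higher at S10-12 (median 0.62), and for corn 5 of 5 (median 0.40).

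Clones of 1 gene could also disagree. The 4 measured clones of CG4440 ran from -3.30 to 0.13 with 3 lower at S10-12, and 5 of 8 roX1 clones were lower on D (median -0.59) although their average was higher there. BobA had 6 clones higher and 5 lower.

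Of the genes that were not tested, 83 were measured in both intervals on 1 letter only, 80 of them on D. Their differences ran from -2.18 to 1.45 with a median of 0.15, and 4 were at least 2-fold higher and 6 at least 2-fold lower at S10-12. The other 8 were measured in both intervals on no letter. Of these, 6 were measured at S10-12 alone, 1 at S8-9 alone and 1 in neither. Sin3A, a corepressor scaffold of histone deacetylases, was measured on 3 membranes at S10-12 and stayed under the signal rule on all 4 at S8-9. The mean of those 3 lay 1.75-fold above the bound at S8-9. fwd, a phosphatidylinositol 4-kinase of the Golgi, was measured on 2 membranes at S10-12, whose mean lay 1.90-fold above its bound at S8-9. Both genes were picked for passing at S10-12, and S10-12 membranes without a value were left out. Neither fold is therefore a lower limit for the interval as a whole. No gene measured on at least 2 membranes at S8-9 had such a bound in the other direction.

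Among the printed controls for early patterning, the mesoderm factor sna passed in 7 of 34 spots at S10-12 and 3 of 34 at S8-9, twi in 8 and 12, and tin in 17 and 22. Spots of fog passed in none of 34 in either interval. The Sry-alpha control passed in 0 of 30 spots at S10-12 and 4 of 30 at S8-9, whereas the library clone of Sry-alpha was measured on C and D at S10-12 and had a fitted difference of 0.94 (95% CI -0.19 to 2.07). Among library genes, stumps was the 1 printed of 23 on the mesoderm list, and none of 16 maternal and germ cell genes was printed, so that the cell types of the embryo could be checked by few genes. Spots of solvent passed the rule in 45 of 560 cases at S10-12 and 34 of 560 at S8-9, which is the background against which single passing spots are to be read.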

How the data were processed

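For each membrane the authors deposited spot intensity values, namely mean signal, background mean and SD, and net signal, measured in VersArray Analyzer with local background subtracted and without normalization. A further deposited table holds 1 normalized score per interval for 123 unnamed features, with unknown scale and centring (column medians 0.195 at S10-12 and 0.308 at S8-9), used only for a tally. Its direction is that of its column names.

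Spots under the background mean plus 1 SD, or with a net signal of 0, and clones whose duplicates had a coefficient of variation over 0.5 were left out. The third filter that the Methods name, qcom, was left out. Clones of a gene were averaged. The scaling was to RP49 alone, because membrane D carries no dap spots. The paper's test, Significance Analysis of Microarrays, was not used for this pair of intervals.

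The 20 membranes were fitted together with limma 3.58.1 (R 4.3.3), with interval means, the membrane letter as a fixed block, 184 features (168 genes, and introns and intergenic regions) and two-sided p-values. The letter was taken to pair membranes: same-letter deviations from the interval means correlated at 0.44, 0.22, 0.45 and 0.63 for A to D. Different letters gave -0.55 to 0.34, a range that holds the 0.22 of B, so these values do not show pairing for B. Deviations from a mean over few membranes also push different letters below 0. Membranes of a letter share a print layout and not embryos. The scripts were tested on simulated data. Tables used Python 3.11.15, pandas 2.3.3 and NumPy 2.4.6.

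A bound sets the mean of the measured membranes against the lowest passing signal of each membrane of the other interval, or the gene's own signal if brighter. It leaves out membranes of the measured interval without a value, so it covers the measured membranes only. Genes were named when they were among the 10 most positive or negative within-letter means with 1 direction on at least 3 letters, had an unadjusted p under 0.05, led a gene list, had a bound, or were printed controls. Genes with values on membrane D alone, those whose membranes did not overlap and those with many clones were added after their values were seen. The comparison and the lists were chosen with earlier results of these data known. Of 259 CG or CR numbers, 238 matched RefSeq locus tags, used for names. The other symbols are those of the array. The alternatives were other scalings (mean RP49, passing RP49, RP49 with dap, RP49 with actin and tubulin, 75th percentile, quantiles), normexp, no signal filter, a rule of 2 background SDs, no duplicate filter, the median of clones, 3 letters, 2 intervals in the fit, no block, and leaving out each membrane letter. The scaling of the controls to dap or the 75th percentile was added after seeing the data.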

Additional observations from a re-analysis of the deposited data

Results flagged for a closer look

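In 30 groups of 4 membranes, 1 for each interval of the named genes measured on all of them, 4 held a membrane far from the others, by Dixon's ratio of its gap to the whole range. Chance alone gives about 1 such group in 20. At S8-9, membrane D stood above A to C for CG7956 (ratio 0.949, log2 value 1.63 against a median of -0.16), for CG12581 (ratio 0.899, -0.18 against -2.20) and for scyl (ratio 0.841, 0.80 against -0.87). For ptc at S8-9, membrane C stood below the others (ratio 0.914, -2.62 against -1.25). Among features outside the gene comparison, the clone of the intergenic region between FBgn0035378 and FBgn0035379 had a fitted difference of -1.78 (unadjusted p = 0.000927, adjusted p = 0.0871 by limma), as far from 0 as the lowest genes.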

How the results depend on the processing

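Of 495 fitted differences of the 29 plotted genes under 18 alternatives, 491 kept their direction. The genes were chosen in part for 1 direction in these data, which fixes much of this, and kept values came as near to 0 as 0.000064 (CG12026 without membrane B). The other 4 were fs(1)h at -0.0039 under normexp, and ptc at 0.061, CG4448 at 0.10 and CG5002 at 0.46 with RP49, actin and tubulin as divisors. That scaling moved the median over genes to 0.77, against -0.01 in the reported fit. Elsewhere it ran from -0.20 (mean RP49) to 0.31 (RP49 with dap). Tubulin spots changed sign to 0.22 when scaled to dap, with letters on both sides and a dap reading near the background on C.

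Genes passed the adjusted test under some settings. Higher at S10-12 were 1 gene with RP49, actin and tubulin (CG7956, 2.79, adjusted p = 0.00986), 1 with quantiles (Kr, 1.15, adjusted p = 0.0462) and 1 with 2 intervals in the fit (CG7956). Lower were 1 gene at the 75th percentile (CG4440, -1.27, adjusted p = 0.0236), 1 with quantiles (HmgZ, -1.78, adjusted p = 0.0201), 2 with normexp (CG4440 and CG3402), 2 without the duplicate filter (CG3402 and CG32043) and 7 with 2 intervals in the fit (CG11077, HmgZ, Df31, CG4440, Tom, Cam and chic). Over all settings, adjusted p-values of these genes reached 0.997. At an unadjusted p the counts were 4 and 10. Leaving out 1 membrane letter gave 0 higher, and 0 to 2 lower, the 2 being CG11077 and CG4440 without D, with medians of -0.15 to 0.14. Without the replicate block, 0 genes were higher and 0 lower (1 each at an unadjusted p), and the median was 0.05. List medians moved by more than the SD of the letter medians (0.49) in 41 of 408 cases. In the authors' table, 26 of 123 features were higher and 97 lower (3 and 60 at least 2-fold), with a median log2 ratio of -0.90. The paper names RP49 and dap as divisors, but the table states neither its scale nor its features. These counts therefore cannot be set against the fit. The cause of these differences was not tested. The number of membranes and of spots above background limits all of them.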
